A study of Bos taurus with 5 samples.

Results

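The 45 genes described here encode the subunits of the constitutive proteasome with its assembly factors, activators and inhibitor. They were taken from the 27607 genes of an RNA sequencing table of cattle (Bos taurus) by gene symbol: every symbol beginning with PSMA, PSMB, PSMC or PSMD and a digit, together with PSME3, PSME4, PSMF1, PSMG1 to PSMG4 and POMP, and without the interferon-inducible PSMB8, PSMB9 and PSMB10. Each of the 45 symbols belonged to a single entry. The letters of this rule also take in PSMC3IP, a partner of meiotic recombination proteins that is no proteasome subunit. Its values are described apart, but the counts, sums and medians of the whole set below include it. The table holds 5 libraries, and each has its own tissue label: brain, skin, lung, heart or limb. Their descriptions give no age, sex, breed, treatment or number of animals or cells, and say that lysed cells were amplified before sequencing on a Fluidigm C1-HT chip, an instrument for handling single cells. With 1 library per label there are no replicates, so no difference below carries an error or a p-value, and each describes these libraries only.

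The proteasome is the enzyme complex that breaks down proteins marked with ubiquitin. Its barrel-shaped 20S core particle is a stack of rings, with alpha subunits at both ends as a gate and beta subunits, 3 of them catalytic, inside. The 19S regulatory particle sits on the barrel, with a base of ATPases that unfold the substrate and a lid that removes its ubiquitin. Dedicated chaperones assemble the core and the base and leave the finished complex. All cells need the proteasome, and its subunit genes are known to be transcribed together under the factor NFE2L1 when proteasome activity falls.

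The unit of the table was read as FPKM (sequenced fragments scaled to transcript length and to the size of the library), so levels of different genes are set side by side per length. Such ratios between genes hold only if that reading is right and reads covered whole transcripts, which is not given in these sources. Where 5 values are listed, they stand in the order brain, skin, lung, heart and limb label. Between 5109 genes in the skin-labelled and 6634 in the heart-labelled library were above 0. The reads behind a value are unknown, and genes that every cell uses can be listed at 0, such as UBA1, the main ubiquitin-activating enzyme, at 19.2, 0, 37.4, 17.9 and 11.98 FPKM. Of 6 defining markers per tissue, 0 of the neuron markers were above 0 under the brain label, 1 of the keratinocyte markers under the skin label, 0 of the alveolar markers under the lung label, 1 of the cardiomyocyte markers under the heart label and 1 of the muscle and cartilage markers under the limb label. Macrophage (5 genes) and lymphocyte (4 genes) markers were at 0 in all 5 libraries, and endothelial and erythroid markers summed to at most 34.8 and 59.5 FPKM, in the lung-labelled library. The labels are therefore used as names of libraries, and no direction below is one for a tissue. In such extracts fewer cells of a type and less RNA per cell cannot be told apart.

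The proteasome genes were among the more abundant genes of all 5 libraries. Together they made up 1.66% of the summed FPKM under the brain label, 1.77% under the skin label, 1.61% under the lung label, 1.16% under the heart label and 1.59% under the limb label. Of the 45, 35 were above 0 in every library, 8 were listed at 0 in 1 to 3 libraries, and PSMA8 (the testis form of PSMA7) and PSMB11 (the thymus form of PSMB5) were listed at 0 in all 5. Considering the 41 that averaged at least 10 FPKM, 35 (85.4%) were above 0 throughout, against 49.7% of the 5010 genes of the table with such a mean. The proteasome genes are more abundant than most of these, and within bands of mean level the shares were closer. From 10 to 100 FPKM 4 of 10 were above 0 in all libraries against 34.1% of all genes, from 100 to 500 FPKM 17 of 17 against 88.8%, and from 500 FPKM upwards 14 of 14 against 98.6%. The 4 genes below the mean of 10 FPKM were PSMD3, PSME4, PSMA8 and PSMB11.

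**Figure D1:**
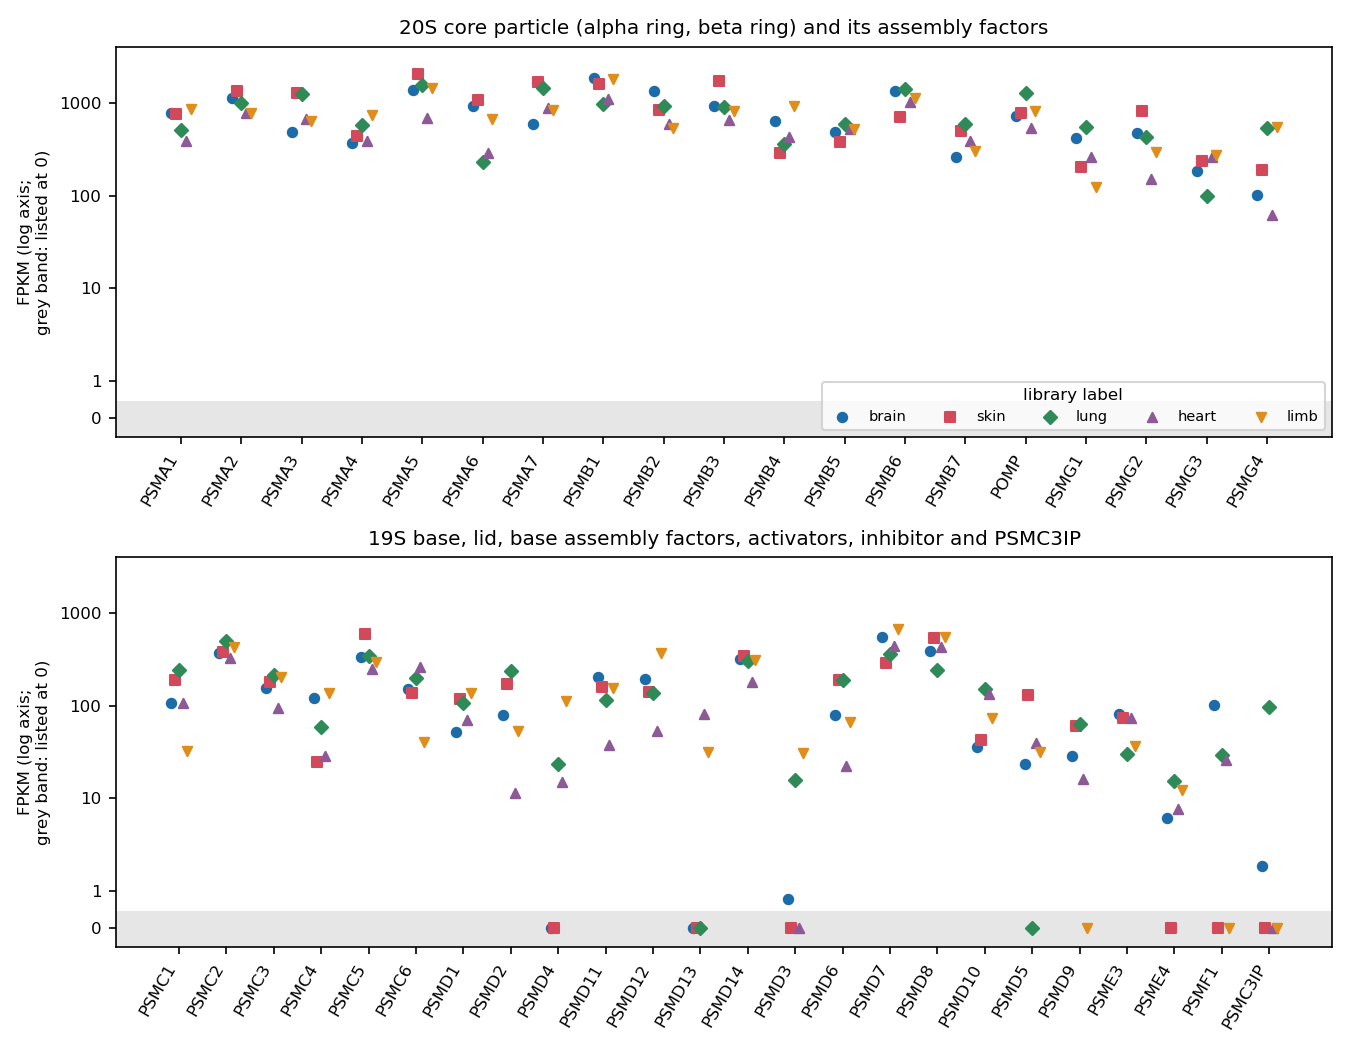
FPKM (log axis) of 43 of the 45 genes in each of the 5 libraries, with 1 symbol per library and values of 0 drawn in the grey band; PSMA8 and PSMB11, at 0 throughout, are not drawn. The genes of the 20S core sit between 233 and 2069 FPKM in every library, while those of the 19S particle range from 0 to 673 FPKM.

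The alpha ring genes, whose products form the gate of the barrel, were above 0 in all libraries and each had a mean of at least 503 FPKM. PSMA5 was the most abundant, at 1389.8, 2069, 1570.1, 683 and 1436 FPKM. PSMA7 stood at 589.6, 1669, 1459, 888 and 845 FPKM, and PSMA3 at 482, 1275, 1235, 675 and 634 FPKM. All 3 were highest in the skin-labelled library, PSMA5 was lowest in the heart-labelled and the other two in the brain-labelled library. PSMA2 was among the steadiest genes of the whole set, at 1118, 1343, 994, 778 and 783 FPKM, with the highest library 1.73 times the lowest. PSMA1 stood at 786, 758, 505, 383 and 861 FPKM, and PSMA4, the least abundant of the ring by its mean, at 366, 436, 584, 386 and 743 FPKM. Both were highest in the limb-labelled library. PSMA6 was the single 20S gene with more than 4-fold between libraries: it was at 929, 1068, 233, 285 and 669.9 FPKM, so that the lung- and heart-labelled libraries lay below the other 3. After adding 1 to each value the highest was 4.57 times the lowest.

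The beta ring genes ranged from a mean of 409.95 FPKM for PSMB7 to 1469 FPKM for PSMB1. PSMB1, a structural subunit, stood at 1842, 1608, 962, 1106 and 1826 FPKM, with the lung- and heart-labelled libraries lowest. PSMB2 was at 1332, 838, 915, 592 and 539 FPKM and PSMB3 at 919.98, 1731, 911, 653 and 807 FPKM, the first highest in the brain-labelled and the second in the skin-labelled library. PSMB4 was at 633, 285, 363, 424 and 924 FPKM, with its lowest value in the skin-labelled library, where PSMB3 was highest. The members of a ring are built into it in equal numbers, yet their levels per length differed within a library. In the alpha ring the highest gene was between 2.27 times (limb label) and 6.74 times (lung label) the lowest, and in the beta ring between 2.85 times (heart label) and 7.11 times (brain label). Which ring had the larger sum also differed. The alpha sum was 1.42 times the beta sum in the skin-labelled and 1.15 times in the lung-labelled library, and 0.988, 0.866 and 0.831 times in the limb-, heart- and brain-labelled libraries.

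The 3 catalytic subunits each stayed within 2.31-fold between libraries, but not at 1 level. PSMB5, which carries the chymotrypsin-like activity that proteasome inhibitor drugs target, stood at 484, 378, 592, 519 and 529 FPKM, and its highest library was 1.56 times the lowest. PSMB6, the caspase-like subunit, was at 1344, 707, 1403, 1025 and 1121 FPKM, between 1.87 and 2.78 times PSMB5 in each library. PSMB7, the trypsin-like subunit, was at 259, 503, 598, 388 and 301 FPKM, lowest in the brain-labelled and highest in the lung-labelled library. When cells make the immunoproteasome, interferon-inducible subunits take these places. PSMB8, the counterpart of PSMB5, stood at 403, 204, 140.1, 120.4 and 221 FPKM, PSMB9, that of PSMB6, at 494, 123, 341, 0 and 208 FPKM, and PSMB10, that of PSMB7, at 229, 107, 309.8, 80.5 and 184 FPKM. The constitutive gene was the higher of each pair in every library. The margin was narrowest in the brain-labelled library, where PSMB5 was 1.199 times PSMB8, PSMB6 2.72 times PSMB9 and PSMB7 1.13 times PSMB10. In the heart-labelled library PSMB5 was 4.31 times PSMB8 and PSMB7 4.83 times PSMB10, and PSMB9 was listed at 0.

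**Figure D2:**
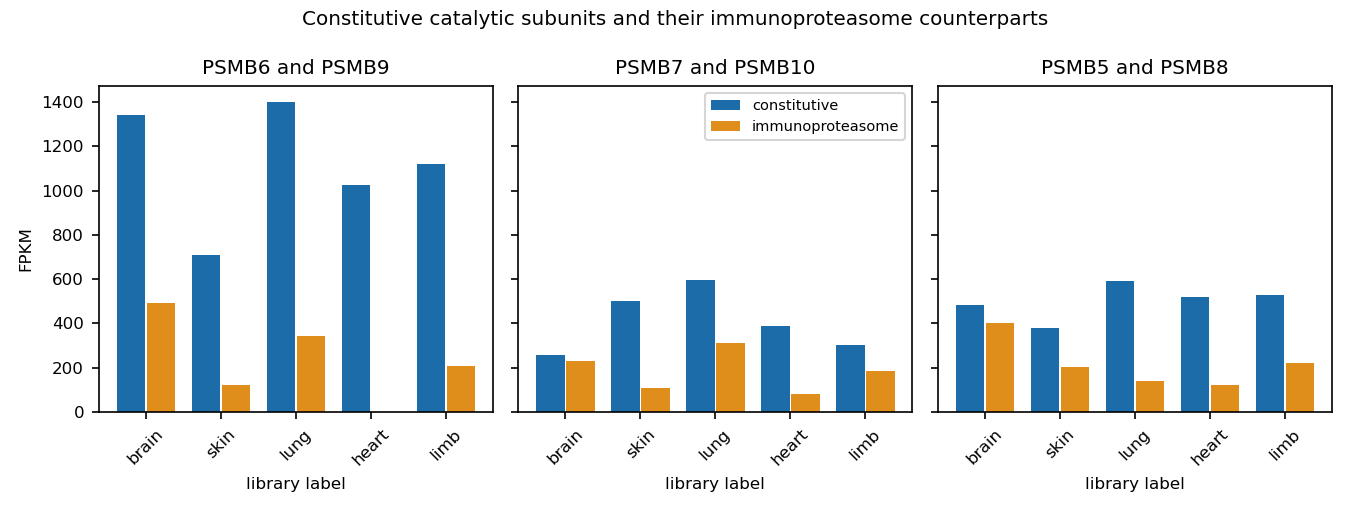
FPKM of each constitutive catalytic subunit gene (blue) and its immunoproteasome counterpart (orange) in the 5 libraries, 1 bar per library and gene. The blue bar is the taller in all pairs, with PSMB5 at 1.199 times and PSMB7 at 1.13 times the counterpart in the brain-labelled library, and PSMB9 has no bar under the heart label.

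The 19S genes were lower than the 20S genes per length. The median over the 14 core genes was 853, 953, 913, 623 and 795 FPKM, and over the 17 genes of base and lid 151, 171, 199.97, 82.2 and 139 FPKM. The ratio of these medians lay between 4.57 in the lung-labelled and 7.57 in the heart-labelled library. PSMD7 and PSMD8, with means of 462 and 430.3 FPKM, were the only 19S genes whose mean exceeded that of the lowest core gene, PSMB7. The part of read coverage along short and long transcripts in this difference was not tested. SEM1, a very small lid protein that the symbol rule does not reach, stood at 1277, 2869.9, 1719, 1168 and 2309.5 FPKM.

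The 6 ATPases of the base form a ring that pulls substrates into the barrel, and all were above 0 in every library. PSMC2 was the most abundant and the steadiest, at 370.1, 383, 501, 324 and 434 FPKM, with the highest library 1.55 times the lowest. PSMC5, between 249.8 and 589 FPKM, and PSMC3, between 93.6 and 215 FPKM, were both lowest in the heart-labelled library. The other three were more than 4-fold apart. PSMC1 stood at 107, 191, 242, 107 and 32.1 FPKM and PSMC6 at 151, 139, 199.97, 262 and 41.03 FPKM, both lowest in the limb-labelled library. PSMC4 differed from both, at 122, 24.7, 58.9, 28.9 and 138 FPKM, with its highest value in the limb-labelled library and its lowest in the skin-labelled one.

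Among the other base subunits PSMD1, a scaffold, stood at 52.6, 119, 107, 70.5 and 139 FPKM. PSMD2, the platform on which shuttle proteins unload ubiquitinated substrates, was at 79.0, 171, 236, 11.4 and 53.4 FPKM, and the heart-labelled value was low by the rule used for all genes, in which the lowest of the other 4 is at least 10 FPKM and, after adding 1, at least 4 times the value. PSMD4, a receptor for ubiquitin chains, was at 0, 0, 23.5, 15.2 and 111 FPKM. It was high in the limb-labelled library by the matching rule, at 10 FPKM or more and, after adding 1, at least 4 times the highest of the other libraries. ADRM1, the other ubiquitin receptor of the base and no member of the set, stood at 70.7, 115, 94.4, 49.6 and 0.99 FPKM, and UCHL5, the deubiquitinating enzyme that ADRM1 carries, at 88.8, 57.8, 39.0, 59.5 and 3.65 FPKM. Both were low in the limb-labelled library, the one in which PSMD4 was highest. Of all genes testable there 11.2% were called low, and a link between these values was not tested.

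In the lid, PSMD14 is the enzyme that cuts ubiquitin chains from the substrate, and PSMD7 is its partner. PSMD14 ranged from 179 FPKM in the heart-labelled to 344 FPKM in the skin-labelled library, and PSMD7 was the most abundant lid gene, at 545, 289.9, 361, 442 and 673 FPKM. PSMD8, between 244 and 551 FPKM, was also within 4-fold. The scaffold subunits were less even. PSMD11 stood at 204, 158, 116, 37.8 and 155 FPKM, PSMD12 at 196, 141, 138, 53.1 and 371 FPKM and PSMD6 at 80.1, 189, 189.9, 22.2 and 66.8 FPKM. All 3 were lowest in the heart-labelled library, and the highest library was the brain-, limb- and lung-labelled one in turn. PSMD13 was listed at 0, 0, 0, 82.2 and 31.3 FPKM, and PSMD3 at 0.83, 0, 15.6, 0 and 31.3 FPKM. Both are structural subunits of the lid, and a listing at 0 at this depth does not show that a library lacked the transcript.

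The assembly factors of the core had means between 211 and 824 FPKM and were above 0 in every library. POMP, which recruits beta subunits and is then degraded by the new proteasome, stood at 715, 775, 1263, 540.4 and 826 FPKM, highest in the lung-labelled library. PSMG1 and PSMG2 act as a pair on the alpha ring, and so do PSMG3 and PSMG4, yet the pairs did not keep 1 ratio. PSMG1 was at 423, 205, 548, 263 and 125 FPKM and PSMG2 at 476, 818, 425, 149.5 and 297 FPKM, so that PSMG1 ranged from 0.2505 times PSMG2 in the skin-labelled to 1.76 times in the heart-labelled library. PSMG3 was at 184, 238, 97.9, 259 and 277 FPKM and PSMG4 at 101, 187, 532, 62.2 and 542 FPKM. PSMG3 was 0.184 times PSMG4 in the lung-labelled library, where PSMG4 was near its highest, and 4.16 times in the heart-labelled library, where PSMG4 was lowest.

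The base chaperones were far lower than these, with means between 33.9 and 87.6 FPKM. PSMD10 (gankyrin), which holds PSMC4 during assembly, stood at 36.1, 42.9, 153, 134 and 72.8 FPKM. PSMD5 was at 23.5, 131, 0, 39.3 and 31.7 FPKM and PSMD9 at 28.8, 60.5, 63.9, 16.3 and 0 FPKM, the first low under the lung label and the second under the limb label by the rule above. All 3 were more than 4-fold apart between libraries. So were most genes of such a level, as 90.1% of all genes averaging 10 to 100 FPKM were at least 4-fold apart. Of the alternative caps, PSME3 (the nuclear activator PA28 gamma) stood at 81.1, 73.5, 29.98, 73.3 and 36.4 FPKM and PSME4 (the activator PA200) at 6.19, 0, 15.4, 7.64 and 12.4 FPKM. PSME1, which with PSME2 forms the cytosolic, interferon-inducible cap, was far higher, at 1409, 605, 637, 813 and 1322 FPKM, so that PSME3 was at most 0.121 times PSME1, in the skin-labelled library. PSMF1, described as an inhibitor of the core, was at 102, 0, 29.6, 25.9 and 0 FPKM, highest in the brain-labelled library. PSMC3IP, which is no subunit, was at 1.87, 0, 97.99, 0 and 0 FPKM. In the lung-labelled library, where it was high, 11 of 12 proliferation markers were above 0, with a sum of 1456 FPKM. In the skin-labelled library 9 of 12 were above 0 with a sum of 1135 FPKM and PSMC3IP was at 0, and in the other 3 libraries 1 or 2 were above 0 with sums of 10.2 to 131 FPKM. The part of proliferation in this value was not tested.

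How far the set varied was then read against all genes. Of the 41 genes averaging at least 10 FPKM, 18 (43.9%) were at least 4-fold apart between the highest and lowest library after adding 1, against 76.3% of all such genes. This contrast also followed the level. From 10 to 100 FPKM the count was 8 of 10 against 90.1% of all genes, from 100 to 500 FPKM 9 of 17 (52.9%) against 49.5%, and from 500 FPKM upwards 1 of 14 (7.14%) against 15.7%. By position in the complex, 1 of the 14 core genes was 4-fold apart, 9 of the 16 genes of the 19S particle with such a mean, 3 of the 5 core assembly factors and 3 of the 3 base chaperones. These positions differ in level as well, and the parts of level and position in these counts were not tested. PSMC3IP, PSMD13 and PSMD4 reached the mean of 10 FPKM only through their highest library, so they had to differ, and these counts describe the set without testing it.

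**Figure D3:**
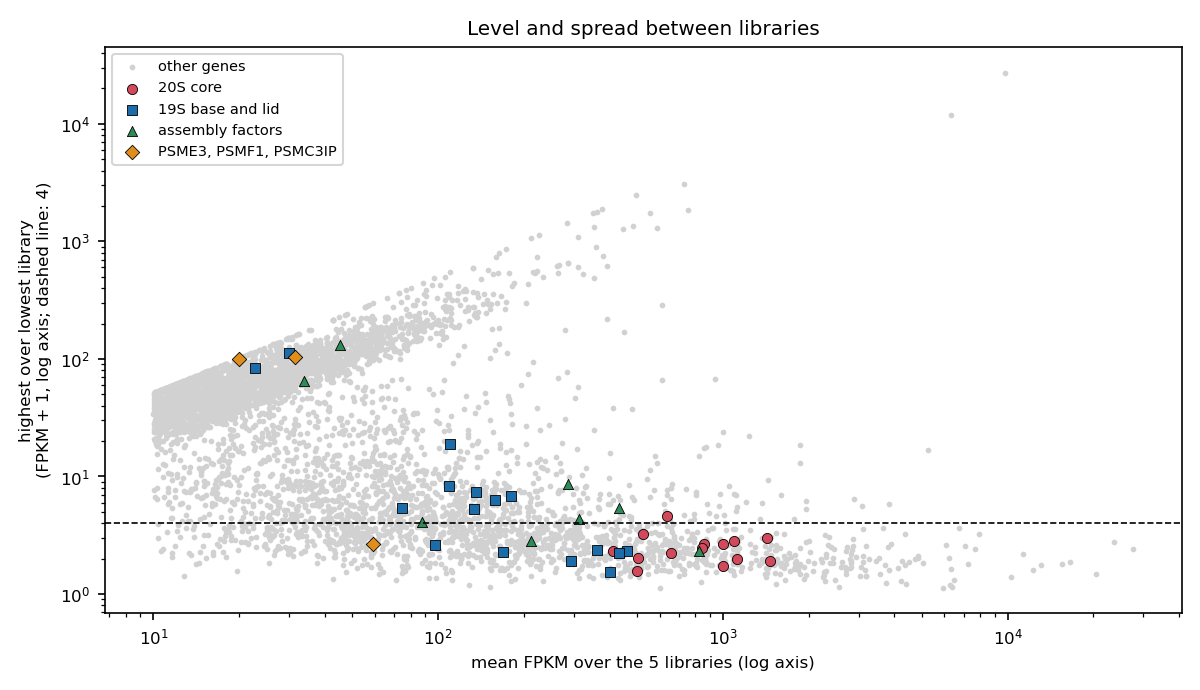
Mean FPKM over the 5 libraries against the ratio of the highest to the lowest library after adding 1 (both log axes), for the 41 proteasome genes and, in grey, all other genes that averaged at least 10 FPKM; the dashed line marks a ratio of 4. The core genes (red) lie at the right with only PSMA6 above the line at 4.57, and the upper diagonal band holds genes listed at 0 in a library.

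Few of the genes stood out in a single library. High values were called for 0 of 38 testable genes under the brain label (7.45% of all testable genes were called), 0 of 37 under the skin label (8.84%), 1 of 41 under the lung label (10.2%), 0 of 40 under the heart label (8.17%) and 1 of 40 under the limb label (7.99%). The called genes were PSMC3IP and PSMD4. Low values were called for 0 of 35 genes under the brain label (2.76% of all testable genes), 0 of 35 under the skin label (12.7%), 1 of 36 under the lung label (9.19%), 1 of 35 under the heart label (4.27%) and 1 of 36 under the limb label (11.2%). These were PSMD5, PSMD2 and PSMD9. Over the 5 libraries this makes 2 high calls in 196 testable values and 3 low calls in 177, against 8.52% and 8.19% for all genes, which are on the whole less abundant. Without the heart-labelled library there were 4 high calls, and without the skin-labelled library 5 low calls.

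Many of the genes shared small shifts in a library, and as deposited the shift was largest in the heart-labelled one. For each gene, log2(FPKM + 1) in a library was set against the mean of the other 4. In the heart-labelled library 31 of the 41 genes lay below that mean (75.6%), with a median difference of -0.41, while 46.6% of all 5010 genes lay below it, with a median of 0.12. The core contributed 13 of its 14 genes, all but PSMB5, the 19S particle 12 of 16 and the core assembly factors 4 of 5. PSMC3IP, listed at 0 there, is also among the 31. Of the base chaperones 2 of 3 lay above that mean, with a median of 1.04, and so did PSME3 and PSMF1. This library also held the lowest value of 15 of the 37 proteasome genes with a single lowest library (40.5%), against 18.4% of 3618 such genes in the table. Neither comparison was matched for level or detection, and the 41 genes are more abundant than most of the 5010. Of the 41 genes 35 were above 0 in all 5 libraries, against 49.7% of the 5010. Of the 5010, 4356 were above 0 under the brain label, 3793 under skin, 4094 under lung, 4285 under heart and 3815 under limb. Among genes above 0 in all 5 libraries, the median ratio to a gene's geometric mean was lowest under the heart label, at 0.959. Under the other labels it was 1.045 to 1.105. The parts of level and detection in these contrasts were not tested. The medians of the set were 0.06 under the brain label (0.36 for all genes), 0.33 under the skin label (0.03), 0.28 under the lung label (0.31) and 0.12 under the limb label (-0.03). As all 5 differences draw on the same libraries, these medians are not independent. Dividing each library by its median ratio to these geometric means of the genes moved the set to -0.24 and all genes to 0.30 in the heart-labelled library. Such a division shifts all genes of a library almost alike, so the gap between the set and all genes could hardly change. It was -0.54 after this scaling and -0.53 as deposited. By that scaling the median of the set was 0.26 in the skin-labelled library, and by the trimmed mean it was 0.25 there and -0.25 in the heart-labelled one. The shift under the heart label was then no larger than that under the skin label. Scaling by the total without mitochondrial and haemoglobin genes left it larger, at -0.37 under the heart label and 0.28 under the skin label. The medians of the skin- and limb-labelled libraries rested in part on the heart-labelled one, and without it they were 0.12 and 0.0038.

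**Figure D4:**
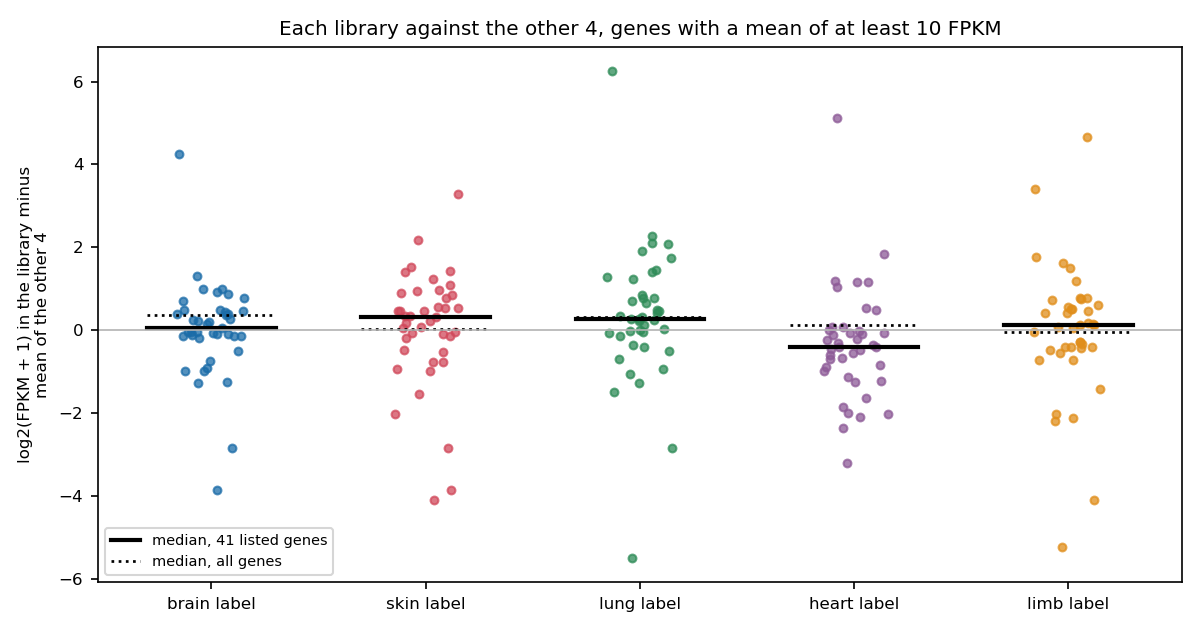
Difference in log2(FPKM + 1) between each library and the mean of the other 4; each point is 1 of the 41 proteasome genes, solid lines are their medians and dotted lines the medians of all 5010 genes that averaged at least 10 FPKM. The solid line is lowest under the heart label, at -0.41, where 31 points lie below 0.

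Other gene lists lay on either side of that mean in the heart-labelled library. Of all genes averaging at least 10 FPKM, 46.6% lay below it there and 53.4% above. All 8 genes of the TRiC chaperonin, which folds actin and tubulin, were below it, with a median of -0.86, and so were 7 of 8 in the limb-labelled library, with a median of -0.70. The 5 immunoproteasome genes were all below it in the heart-labelled library, with a median of -0.89. Of eIF3, the translation initiation factor, 8 of 12 genes were below in the heart-labelled library, with a median of -0.28, and 8 of 12 in the limb-labelled library, with a lower median of -0.76. Of the COP9 signalosome, a relative of the lid, 4 of 8 were below in the heart-labelled library, with a median of -0.07. The 3 extraction genes that averaged 10 FPKM or more were all below it there, with a median of -0.82, and lower still under the limb label, at -2.05. Other lists were higher under the heart label. Of the associated 26S proteins 6 of 8 were above the mean of the other libraries, with a median of 0.50, of ubiquitin and its activating enzymes 4 of 5, with a median of 0.20, and of the shuttles 2 of 3, with a median of 0.68. AKIRIN2 of the associated proteins and ZFAND5 of the shuttles reached the mean of 10 FPKM only through their value in that library. Both are counted above, so these counts describe the lists without testing them. The sum of the 45 proteasome genes was 1.62 times as high in the skin-labelled as in the heart-labelled library, and the TRiC sum 2.42 times as high in the lung-labelled as in the heart-labelled library. Whether these sets differ from each other was not tested.

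The order of the genes by level was similar between libraries. Across the 41 genes Spearman's rho between libraries lay between 0.818 and 0.899 for the 10 pairs, and across all 5010 genes between 0.496 and 0.676. These are descriptions across genes, which are not independent replicates. The 41 genes span subcomplexes of different level, and across the 14 core genes alone rho lay between 0.319 and 0.855. A typical gene of the set differed between 2 libraries by 0.51 to 0.97 on the log2 scale, and a typical gene of the table by 0.94 to 1.49. These ranges are not matched for level. The median of the mean levels was 285 FPKM in the set and 38.4 FPKM among the 5010 genes, and more abundant genes differed less between libraries.

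Other genes of the pathway were read from lists of ubiquitin, shuttle, extraction and regulator genes. Both ubiquitin genes named here were far above the proteasome subunits, with UBB at 7037, 4669.6, 3826, 5482 and 4183 FPKM and RPS27A, in which ubiquitin is fused to a ribosomal protein, at 3402, 5432, 6626, 3366 and 4857 FPKM. Of the 6 genes for ubiquitin and its activating enzymes, 0 of 25 testable values were high and 1 of 21 was low, UBA1 at its listing of 0 in the skin-labelled library, against 8.52% and 8.19% for all genes. VCP, the ATPase that extracts ubiquitinated proteins from complexes and membranes, stood at 96.8, 157, 220.04, 33.2 and 24.03 FPKM, with its highest values under the skin and lung labels, and its cofactor UFD1 at 165, 134, 273, 83.5 and 78.9 FPKM. Of the 5 extraction genes, 0 of 16 testable values were high and 1 of 11 was low, NSFL1C in the limb-labelled library, so that the low share was near that of all genes. The 7 genes listed as shuttles, most of which carry ubiquitinated proteins to the base, included 3 with a mean of at least 10 FPKM. Of their testable values 1 of 12 was high, ZFAND2A in the lung-labelled library at 16.6 FPKM, again near the share of all genes, and 0 of 5 were low.

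Of 10 further parts of the proteasome or proteins associated with it, 1 of 30 testable values was high, ECPAS, a scaffold protein, under the brain label at 53.8 FPKM. In the same list 2 of 17 were low, ADRM1 and UCHL5 in the limb-labelled library, against the 8.52% and 8.19% of all genes. USP14, a deubiquitinating enzyme bound to the base, stood at 87.5, 264, 31.1, 127 and 93.8 FPKM, and AKIRIN2, which brings proteasomes into the nucleus, was above 0 in the heart- and limb-labelled libraries alone, at 77.95 and 42.8 FPKM. Of the 6 regulators of the subunit genes found by symbol, 2 had a mean of at least 10 FPKM. NFE2L1 stood at 5.15, 2.76, 0.55, 8.11 and 2.44 FPKM and its relative NFE2L2 at 30.6, 5.40, 13.5, 40.6 and 7.93 FPKM. Both were highest in the heart-labelled and next highest in the brain-labelled library. NFE2L1 stayed below 10 FPKM throughout, and a link between these values and the level of the set was not tested. NGLY1, the enzyme that removes sugar chains from NFE2L1 and so activates it, was at 0, 0, 25.7, 0 and 42.2 FPKM. No value of the regulators could be tested for a low call, and 0 of the 7 that could be tested were high.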

How the data were processed

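RNA sequencing values of 5 cattle libraries, 1 per tissue label, were used. Per the submitters' processing notes, bcl2fastq, STAR and RSEM were used with the ARS-UCD1.2 build; their versions, the annotation and filters are not given in these sources. The authors deposited 1 table, whose values were taken as FPKM by elimination, since neither table nor labels name the unit: 0.885% to 1.27% of values above 0 are whole numbers, and library sums differ between 1072430 and 1172800. With no counts, the reads behind a value are unknown, and no count model or interval was used. Symbols are those of the table. Of a table of RefSeq gene names for ARS-UCD2.0, 0 identifiers matched, so no coordinates are given.

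Values were used as deposited. High in a library means at least 10 FPKM and (FPKM + 1) at least 4 times the highest of the other 4, and low means that the lowest of the other 4 is at least 10 FPKM and 4 times the value on the same scale. Testable genes are those that meet the minimum. Adding 1 understates ratios of low genes. Members, lists and rules were chosen with earlier results of these data known, and the bands of mean level after seeing the values. Values by library are given for core genes, called genes, the 15 with the largest ratio, genes listed at 0 in some libraries and the extremes of each subcomplex, and for some others. Alternatives were other pseudocounts, minimums, folds, scalings and reference libraries, and the set without PSMC3IP, the last chosen after seeing the data. The rules were run on simulated data with means of at least 50 FPKM, no values of 0 and planted 8-fold changes. The spread set there was smaller than that between these libraries. That run checks how the rules were written, not how they behave on values like these. Python 3.11.15, numpy 2.4.6 and pandas 2.3.3 were used. Of the related genes listed, DDI2 and EIF3C were not found under these symbols. Some genes of the pathway lists are not reported here.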

Additional observations from a re-analysis of the deposited data

How the results depend on the processing

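Of 140 recomputed values, 108 stayed within 1.5 times (counts) or 0.1 on the log2 scale (medians and sums), 29 moved further and 3 medians changed sign. The number of genes above 0 in all 5 libraries stayed within 1.5 times of 35 under its 8 alternatives, but most of these could not move it further. Leaving out a library can only keep or raise the count, which the list of 45 genes caps below 1.5 times. PSMC3IP, at 0 in 3 libraries, was never in the count. All 8 are nevertheless among the 108. The 18 genes at least 4-fold apart became 35 at a fold of 2 and 9 at a fold of 8. High calls, 2 as reported, became 1 with a pseudocount of 10, at a fold of 8 and without PSMC3IP, 5 at a fold of 2, 4 without the heart-labelled library and 6 against the mean of the other libraries. The call lost with that pseudocount and at a fold of 8 was PSMD4, at 111 FPKM under the limb label and 23.5 FPKM under the lung label. Low calls, 3 as reported, became 0 with a pseudocount of 10, 1 with a minimum of 50 FPKM, 9 at a fold of 2, 5 without the skin-labelled library and 8 against the mean of the others. The heart-labelled median kept its sign under all 13 alternatives and was -0.24 by median-ratio and -0.25 by trimmed-mean scaling. The brain-labelled median, 0.06, changed sign to -0.041 with a pseudocount of 10, -0.12 against the median of the others and -0.022 without the heart-labelled library, and became 0.16 with a pseudocount of 0.1, 0.22 without the skin-labelled and 0.26 without the lung-labelled library. The skin-labelled median, 0.33, became 0.22 with a minimum mean of 1 FPKM, 0.18 against the median of the others and 0.12 without the heart-labelled library, where the lung-labelled one became 0.17 and the limb-labelled one 0.0038. The limb-labelled median was 0.0080 against the median of the others. Under median-ratio scaling the sums became 16561 FPKM (brain label), 18864 FPKM (skin) and 17069 FPKM (lung), and under the trimmed mean 18854 FPKM (skin) and 17134 FPKM (lung). Causes of these shifts were not tested. With 1 library per label and unknown depth, a gene listed at 0 cannot be told from one below detection.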
